A study of Zea mays with 6 samples.

Results

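The spliceosome genes described here are the genes whose pathway annotation in the deposited tables holds the KEGG spliceosome map, zma03040, leaving out those whose description contains heat shock. They number 158 of the 39179 genes listed, since 165 genes carried the map and 7 of them were heat shock genes. No measured value entered this choice. Counts were high enough to test 155 of them. The other 3 (Zm00001d005285, Zm00001d007543 and Zm00001d025878) did not pass the filter on low counts, which left 22259 genes tested in all. The 158 genes lie on all 10 maize chromosomes. All were sorted by hand, from their descriptions and GO terms, into 10 classes of role. Unlike the rule for the set, these classes were drawn up with earlier results of these data known. A pair of genes described as mediator subunit 37c, which is an HSP70 protein in Arabidopsis, carry the map without the words heat shock and were kept.

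RNA was sequenced from maize endosperm, the part of the kernel that fills with starch and storage protein, collected 20 days after pollination. The groups are 3 libraries of nacRNAi, labelled as siblings under the name Ni4, and 3 libraries of wild type, all labelled as inbred B73. The nacRNAi line carries an RNA interference construct, which lowers transcripts that match it, and from knowledge of the study it is aimed at the endosperm transcription factor genes NAC128 and NAC130. Neither the promoter of the construct nor the number of transgenic events behind Ni4 is given in the sources used here. Whether replicate libraries stem from separate plants is not labelled, so each p-value measures only the spread between these libraries, which may be technical.

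The spliceosome removes introns from nuclear transcripts. It assembles on each intron from small nuclear ribonucleoproteins (snRNPs), in which a small RNA is held by a ring of Sm or LSm proteins: the U1 snRNP marks the 5′ splice site, U2 and its U2AF helper mark the branch site and 3′ splice site, and the U4/U6.U5 tri-snRNP brings in the catalytic RNAs. DEAD- and DEAH-box helicases and the Prp19 complex then remodel the particle, while SR and hnRNP proteins on the exons and introns steer which sites are used. The exon junction complex and the export adaptors are loaded on the spliced messenger RNA and accompany it out of the nucleus.

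Total gene counts ran from 59084750 to 69670876 in nacRNAi and from 55812999 to 64603196 in wild type. NAC130 (Zm00001d008403) had 238, 227 and 222 CPM in nacRNAi, against 1336, 1335 and 1054 CPM in wild type, where CPM is the read count scaled to library size by TMM, which centres the typical gene. It fell by 2.44 on the log2 scale (quasi-likelihood F-test of edgeR, Benjamini-Hochberg adjusted p = 4.22e-06). NAC128 (Zm00001d040189) had 248, 300 and 283 CPM in nacRNAi and 309, 359 and 271 CPM in wild type, and did not pass (log2 fold change −0.18, edgeR adjusted p = 0.245). The tissue label was checked against storage protein genes: all 18 genes described as zein or glutelin-2 were tested, and 17 of them were lower in nacRNAi. Their summed level was 181224 to 192497 CPM in nacRNAi and 405350 to 458445 CPM in wild type. Markers of other kernel parts (oil body, aleurone, basal transfer layer and photosynthetic genes, 36 in all, 2 of them at 0 in every library) summed to 1033 to 1327 CPM in nacRNAi and 1639 to 1716 CPM in wild type, with 3 of 23 tested genes higher and 12 lower. The part of these shifts in the results below was not tested. In bulk tissue, fewer cells of a type and less RNA per cell cannot be told apart.

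Spliceosome genes moved in both directions and mostly by small amounts. Of the 155 tested, 42 were higher in nacRNAi (27.1%, beside 23.2% of all tested genes) and 47 were lower (30.3%, beside 24.0%), by edgeR's quasi-likelihood test at a Benjamini-Hochberg adjusted p under 0.05. The remaining 66 did not pass. Calls therefore took 57.4% of spliceosome genes and 47.3% of all tested genes. The libraries of the lines did not overlap for 106 spliceosome genes (68.4%, beside 59.2% of all tested genes). Large changes took a smaller share than in the background: 24 were called with at least a 1.5-fold change (15.5%, beside 30.8%) and 4 with at least a 2-fold change (2.58%, beside 17.6%). The median absolute log2 fold change was 0.27 for spliceosome genes and 0.47 for all tested genes, and the median signed log2 fold change was 0.035 for spliceosome genes, against -7.03e-05 for all tested genes. The count of higher genes was lower in every fit that left out a library: it was 26 without nacRNAi replicate 2 and 27 without nacRNAi replicate 3. Such fits have less power and also called fewer of all tested genes, and the part of this was not tested. Of the 42 higher calls 23, and of the 47 lower calls 38, held whichever library was left out.

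The summed level of all spliceosome genes was 7158, 7455 and 7484 CPM in nacRNAi and 7694, 7622 and 7655 CPM in wild type. All 3 nacRNAi sums lay below all 3 wild-type sums. The means were 7366 ± 180 CPM in nacRNAi and 7657 ± 35.8 CPM in wild type (SD, n = 3 each). This direction belongs to the TMM scale. As CPM on library totals, without TMM, the same genes summed to 8812 ± 279 in nacRNAi and 6405 ± 265 in wild type (SD, n = 3 each), or 0.853% to 0.909% of all counts in nacRNAi and 0.615% to 0.668% in wild type. On that scale the median log2 fold change of all tested genes was 0.52 and that of spliceosome genes 0.56. With it, 111 spliceosome genes were higher (71.6%, beside 50.5% of all tested genes) and 7 lower (4.52%, beside 9.00%). Changes in the text below are therefore relative to the typical gene. For the class counts below, the shares of all tested genes are 23.2% higher and 24.0% lower. On library totals they are 50.5% and 9.00%. Of the 47 genes called lower on the TMM scale, 7 were also lower and 9 were higher on library totals, and all 42 called higher stayed higher.

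**Figure D1:**
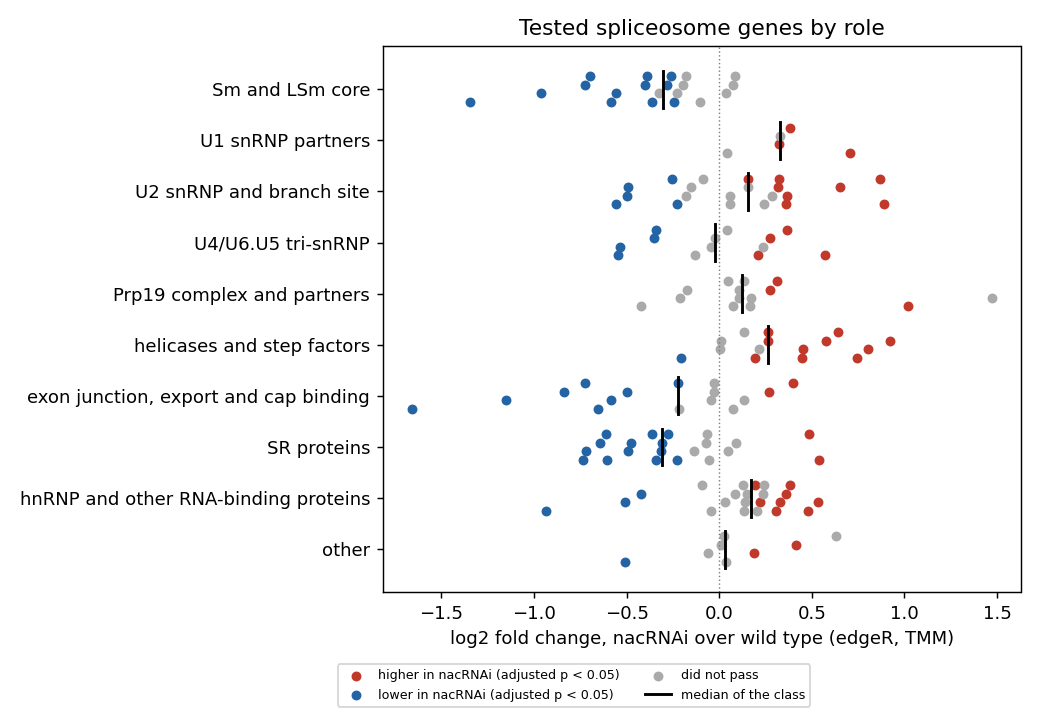
Log2 fold change, nacRNAi over wild type, of each of the 155 tested spliceosome genes on the TMM scale (x axis), with 1 row for each of 10 role classes; red points passed the test as higher in nacRNAi, blue as lower, grey did not pass, and the black bar is the median of the class. Sm and LSm, SR, and exon junction and export genes lie mostly left of 0, with class medians of −0.30, −0.31 and −0.22 (0.21, 0.21 and 0.30 on library totals), and the helicases mostly right of it, with a median of 0.26.

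The core ring proteins were mostly lower in nacRNAi. Of 20 Sm and LSm genes, 12 fell, none rose and 8 did not pass, with a median log2 fold change of −0.30. Their summed level was 619, 656 and 596 CPM in nacRNAi and 812, 843 and 815 CPM in wild type. The sums of the lines did not overlap, with means of 624 ± 30.1 CPM in nacRNAi and 823 ± 17.3 CPM in wild type (SD, n = 3 each). On library totals the class goes the other way, with 9 genes higher and 2 lower and a median of 0.21, below the 0.52 of all tested genes.

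The furthest fall among genes with at least 5 CPM in the higher line was that of LSM5, a subunit of the LSm ring on the U6 small RNA. This copy (Zm00001d010461, chromosome 8, 116331820 to 116334299, minus strand) had 4.34, 4.44 and 4.87 CPM in nacRNAi, against 10.3, 11.8 and 12.6 CPM in wild type. Its log2 fold change was −1.35 with an SE of 0.12 (edgeR adjusted p = 9.77e-05), and every nacRNAi library lay far under the lowest wild-type library. The other LSM5 copy (Zm00001d038088) averaged 12.3 ± 0.508 CPM in nacRNAi and 18.1 ± 0.870 CPM in wild type (SD, n = 3 each), so that both copies fell. LSM7-like (Zm00001d002155, chromosome 2, 6874784 to 6877507, plus strand), another member of that ring, had 22.5, 26.6 and 22.9 CPM in nacRNAi and 45.7, 49.4 and 45.0 CPM in wild type, a log2 fold change of −0.96 with an SE of 0.09 (edgeR adjusted p = 9.01e-05). Its gene model overlaps another one in the table, and the labels do not say whether reads were counted by strand. A gene of the same description outside the set (Zm00001d026392) was higher instead. It averaged 15.7 CPM in nacRNAi and 11.7 CPM in wild type (log2 fold change 0.43, edgeR adjusted p = 0.0110). Both genes of SmG, a subunit of the Sm ring carried by U1, U2, U4 and U5, also fell. The more abundant (Zm00001d029483, chromosome 1, 72602928 to 72605955, plus strand) had 64.9, 76.2 and 66.9 CPM in nacRNAi and 112, 113 and 118 CPM in wild type, with a log2 fold change of −0.72 (SE 0.07, edgeR adjusted p = 0.000176). The Sm gene with the highest FPKM, Zm00001d049557, described as Sm-X5-like, differed less: 60.2, 65.3 and 63.5 CPM in nacRNAi and 74.2, 77.9 and 73.9 CPM in wild type (log2 fold change −0.26, edgeR adjusted p = 0.00874). The class was not uniform, since SmD1, SmD3b (Zm00001d047962) and an SmB-like gene (Zm00001d007898, described as snRNP-associated protein) had log2 fold changes of 0.03, 0.08 and 0.09 and did not pass.

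Genes for partners of the U1 snRNP were few, all of them PRP40 or PWI domain genes. Of these, 3 of 5 rose, none fell, and the median log2 fold change was 0.33. The largest rise was in a PWI and RNA recognition motif gene (Zm00001d032319, chromosome 1, 222101307 to 222107362, plus strand), which had 27.8, 34.0 and 37.0 CPM in nacRNAi and 22.3, 17.7 and 20.6 CPM in wild type. The lines did not overlap (log2 fold change 0.71, SE 0.13, edgeR adjusted p = 0.00294). PRP40C (Zm00001d013989), whose yeast homologue bridges the ends of the intron, had 38.9, 40.5 and 45.2 CPM in nacRNAi and 34.5, 31.8 and 33.3 CPM in wild type (log2 fold change 0.32, edgeR adjusted p = 0.0101). Outside the set, the gene described as U1 snRNP A (Zm00001d037602) was lower (log2 fold change −0.28, edgeR adjusted p = 0.00681). Another described as U1 snRNP (Zm00001d014343) was higher (log2 fold change 0.47, edgeR adjusted p = 0.000727).

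Branch-site genes moved in both directions. Of 21 U2 snRNP and branch-site genes, 8 rose and 5 fell, with a median log2 fold change of 0.16. The share of falls was close to the 24.0% of all tested genes, and that of rises above their 23.2%. The rises numbered 5 without nacRNAi replicate 2, nacRNAi replicate 3 or wild type replicate 1. The rises were led by the U2AF large subunit, which binds the polypyrimidine tract ahead of the 3′ splice site. Its abundant gene (Zm00001d048777, chromosome 4, 5407409 to 5413841, plus strand) had 154, 144 and 155 CPM in nacRNAi, against 85.1, 75.8 and 86.7 CPM in wild type, a log2 fold change of 0.87 (SE 0.07, edgeR adjusted p = 6.24e-05). The rarer gene (Zm00001d007632, chromosome 2, 236537623 to 236544099, minus strand) had 13.5, 15.7 and 16.1 CPM in nacRNAi and 8.01, 8.45 and 7.97 CPM in wild type, a log2 fold change of 0.89 (SE 0.10, edgeR adjusted p = 0.000325). For both genes the lowest nacRNAi library lay well above the highest wild-type library. SF3B1 (Zm00001d015248, chromosome 5, 81113455 to 81118262, plus strand), the large scaffold of the SF3b complex that holds the branch site, had 64.0, 66.3 and 77.2 CPM in nacRNAi and 45.6, 39.7 and 46.7 CPM in wild type, a log2 fold change of 0.65 (SE 0.09, edgeR adjusted p = 0.00095). Both genes described as CPSF A subunit proteins, a family that includes the SF3b scaffold SF3B3, rose by 0.36 and 0.37 on the log2 scale, and the call of the second (Zm00001d019115) was lost in 5 of the 6 fits that left out a library. Among other subunits of the particle, both genes of U2B″, which binds the U2 RNA, fell, with log2 fold changes of −0.56 and −0.50. PHF5A (Zm00001d001951), a small SF3b protein, also fell, and averaged 32.1 ± 0.909 CPM in nacRNAi and 45.1 ± 2.57 CPM in wild type (SD, n = 3 each). Its change was −0.49 on the log2 scale (edgeR adjusted p = 0.000734). The gene for another small SF3b protein, described as SF3B6-like (Zm00001d013009), did not pass (log2 fold change −0.15, edgeR adjusted p = 0.18). The class member with the highest FPKM, U2AF small subunit gene Zm00001d020954, had 76.9, 88.3 and 94.7 CPM in nacRNAi and 95.0, 90.5 and 90.4 CPM in wild type. Its libraries overlapped and it did not pass (log2 fold change −0.09, edgeR adjusted p = 0.425).

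Of 13 tri-snRNP genes, 4 rose and 4 fell, with a median log2 fold change of −0.02. Every fit that left out a library, with less power than the full fit, called fewer rises. They numbered 1 without nacRNAi replicate 3 or wild type replicate 3, and 2 without nacRNAi replicate 2 or wild type replicate 2. In each of the 6 fits 3 or 4 falls were called. The falls included the most abundant spliceosome gene on the FPKM scale, which corrects for gene length. It is Zm00001d047958 (chromosome 9, 146174889 to 146177189, minus strand), an L7Ae family protein annotated to the tri-snRNP and to box C/D snoRNPs, and it had 218, 211 and 194 CPM in nacRNAi and 289, 310 and 303 CPM in wild type. Its log2 fold change was −0.53 with an SE of 0.07 (edgeR adjusted p = 0.000421), while its deposited FPKM averaged 183 ± 8.86 in nacRNAi and 157 ± 8.83 in wild type (SD, n = 3 each), the opposite order. FPKM is not centred on the typical gene. On log2(FPKM + 1) this gene differed by 0.22, below the median of 0.51 over all tested genes. DIM1 (Zm00001d032313), a small U5 protein, had 104, 109 and 97.8 CPM in nacRNAi and 153, 143 and 157 CPM in wild type (log2 fold change −0.54, edgeR adjusted p = 0.000404). One of the genes for PRP3, a U4/U6 protein (Zm00001d053379, described as splicing factor 3), rose (log2 fold change 0.57, edgeR adjusted p = 0.00133), while the other (Zm00001d016084) had a log2 fold change of 0.04 and did not pass.

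Among the 14 genes of the Prp19 complex and its partners, which stabilise the catalytic centre, 3 rose, none fell and 11 did not pass, with a median log2 fold change of 0.12. The largest called rise of the whole set was here, in the gene described as prp45, the homologue of human SKIP (Zm00001d052186, chromosome 4, 182598008 to 182599837, plus strand). It had 43.7, 40.8 and 41.1 CPM in nacRNAi and 21.8, 21.2 and 19.1 CPM in wild type. The nacRNAi libraries were all close to double the wild-type ones, with a log2 fold change of 1.02 (SE 0.08, edgeR adjusted p = 4.11e-05). The most abundant of the class, a Cwc15 gene (Zm00001d039350), had 235, 261 and 232 CPM in nacRNAi and 220, 170 and 197 CPM in wild type (log2 fold change 0.31, edgeR adjusted p = 0.0344). That call was lost in 5 of the 6 fits that left out a library, with log2 fold changes of 0.22 to 0.41. A G10 family gene with the highest fitted log2 fold change of the set, 1.47 (Zm00001d042799), did not pass. It had 19.1, 1.29 and 0.990 CPM in nacRNAi and 0.987, 0.978 and 5.79 CPM in wild type, so single libraries stood apart in each line. The neighbouring G10 gene Zm00001d042796 had its lowest nacRNAi value, 53.9 CPM, in the library where Zm00001d042799 was highest, and its lowest wild-type value, 95.4 CPM, likewise. Across the libraries Zm00001d042796 had 53.9, 109 and 98.4 CPM in nacRNAi and 131, 123 and 95.4 CPM in wild type. These genes share a description, and their sequences were not compared. Whether reads were split between them in counting was not tested, and the values of both genes remain uncertain.

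Helicases and step factors had the highest share of rises among the classes with at least 10 tested genes. Of 15 tested, 10 rose, 1 fell and 4 did not pass, with a median log2 fold change of 0.26. The call of the gene that fell (Zm00001d047601, log2 fold change −0.20) was lost in 5 of the 6 fits that left out a library. Their summed level was 869, 873 and 915 CPM in nacRNAi and 722, 726 and 724 CPM in wild type, with no overlap between the lines. The sums did overlap for Prp19 genes (603 to 679 CPM in nacRNAi, 553 to 614 CPM in wild type). They also overlapped for hnRNP and other RNA-binding genes (913 to 960 and 904 to 920 CPM) and for genes outside the roles. Those of every other class did not. Prp18 (Zm00001d013489, chromosome 5, 12657966 to 12661040, plus strand), a factor of the second catalytic step, was rare, with 4.16, 6.64 and 6.26 CPM in nacRNAi and 2.64, 3.75 and 2.59 CPM in wild type. Its log2 fold change of 0.93 had the widest error of the leading rises (SE 0.24, edgeR adjusted p = 0.0134), and the call was lost without nacRNAi replicate 2 (log2 fold change 0.80). SLU7 (Zm00001d035170, chromosome 6, 7517294 to 7521650, plus strand), which acts at the same step, had 46.3, 44.5 and 35.9 CPM in nacRNAi and 26.4, 25.2 and 24.1 CPM in wild type, a log2 fold change of 0.74 (SE 0.10, edgeR adjusted p = 0.00076). RH21 (Zm00001d013453, chromosome 5, 11966175 to 11968379, plus strand), described as DEAD-box helicase 21 and the counterpart of yeast Prp28, which releases U1, had 10.3, 9.88 and 11.7 CPM in nacRNAi and 6.41, 6.20 and 5.65 CPM in wild type. Its log2 fold change was 0.80, with an SE of 0.12 (edgeR adjusted p = 0.000912). DExH12 (Zm00001d022286, chromosome 7, 174472991 to 174481994, minus strand), the counterpart of Brr2, which unwinds U4 from U6, had 176, 175 and 194 CPM in nacRNAi and 113, 118 and 119 CPM in wild type, a log2 fold change of 0.64 (SE 0.06, edgeR adjusted p = 0.000142). The DEAD-box helicase 14 gene with the highest FPKM of the class, Zm00001d044510, had 216, 212 and 236 CPM in nacRNAi and 189, 187 and 203 CPM in wild type. Its call was marginal (log2 fold change 0.19, edgeR adjusted p = 0.0432) and was lost in 5 of the 6 fits that left out a library, with values of 0.15 to 0.24.

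Genes that act after splicing had more falls than rises. Of 16 exon junction, export and cap-binding genes, 8 fell, 2 rose and 6 did not pass, with a median log2 fold change of −0.22 (0.30 on library totals, where 9 were higher and 3 lower). The genes for Mago nashi and Y14, which pair in the exon junction core, fell. Mago nashi (Zm00001d049723, chromosome 4, 41535564 to 41537887, minus strand) had 99.5, 99.4 and 99.5 CPM in nacRNAi and 145, 150 and 152 CPM in wild type, a log2 fold change of −0.58 (SE 0.05, edgeR adjusted p = 9.35e-05). Y14, the protein it pairs with, is described as RNA-binding protein 8A, and its main gene (Zm00001d024787, chromosome 10, 88361369 to 88366871, plus strand) had 40.4, 44.6 and 42.8 CPM in nacRNAi and 68.8, 72.2 and 70.5 CPM in wild type, a log2 fold change of −0.73 (SE 0.06, edgeR adjusted p = 7.23e-05). A second Y14 gene (Zm00001d034578) and a SAP domain gene annotated to the ASAP complex (Zm00001d022198), singled out after their values were seen, fell further, by 1.66 and 1.15 on the log2 scale, but averaged only 0.867 and 1.69 CPM in nacRNAi and 2.75 and 3.75 CPM in wild type. All 3 genes of THO4B, an export adaptor of the ALY family, fell. The one with the furthest fall (Zm00001d028655, chromosome 1, 41897894 to 41901694, minus strand) had 27.5, 28.5 and 26.1 CPM in nacRNAi and 47.1, 46.8 and 52.8 CPM in wild type, a log2 fold change of −0.84 (SE 0.07, edgeR adjusted p = 9.01e-05). The genes for THO complex subunit 1 (log2 fold change 0.40) and for 1 of 2 THO4C copies (0.27) rose instead, the THO4C call (Zm00001d050357) being lost in 4 of the 6 fits that left out a library. One rise was left in the class without nacRNAi replicate 2, nacRNAi replicate 3, wild type replicate 1 or wild type replicate 2. The gene for the RNA helicase described as BAT1, which loads export adaptors, did not pass (−0.03).

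SR proteins, which bind exons and recruit U1 and U2AF, made up the class with the most falls. Of 21 genes, 13 fell, 2 rose and 6 did not pass, and the median log2 fold change was −0.31. Without any 1 of the nacRNAi libraries or without wild type replicate 1, the rises numbered 1. Their summed level was 943, 951 and 955 CPM in nacRNAi and 1231, 1238 and 1196 CPM in wild type. The means were 949.8 ± 6.11 CPM in nacRNAi and 1222 ± 22.4 CPM in wild type (SD, n = 3 each), which did not overlap. On library totals 9 SR genes were higher and 1 lower, and the class median of 0.21 lay below the 0.52 of all tested genes. RS2Z32 (Zm00001d035552, chromosome 6, 32906724 to 32909899, plus strand), a plant SR protein with zinc knuckles and the most abundant SR gene, had 178, 174 and 175 CPM in nacRNAi, against 299, 297 and 281 CPM in wild type. Its log2 fold change was −0.73 with an SE of 0.06 (edgeR adjusted p = 4.3e-05). SCL33 (Zm00001d047401, chromosome 9, 128893506 to 128896643, plus strand), an SC35-like factor of plants, had 22.5, 23.5 and 22.3 CPM in nacRNAi and 39.2, 35.4 and 37.9 CPM in wild type, a log2 fold change of −0.72 (SE 0.07, edgeR adjusted p = 0.000132). The gene for SR34 (Zm00001d047498), the relative of human SRSF1, averaged 68.4 ± 2.01 CPM in nacRNAi and 104 ± 2.66 CPM in wild type (SD, n = 3 each), a log2 fold change of −0.60. All 3 RSZ22 genes and all 3 genes described as arginine/serine-rich 7 fell, with log2 fold changes of −0.36 to −0.23 and −0.64 to −0.31. Of those 6, the calls of Zm00001d022177, Zm00001d018341, Zm00001d017177 and Zm00001d052062 were lost in 6, 4, 3 and 2 of the 6 fits that left out a library. Of 3 genes described as SC35-like, both SCL33 genes fell and the SCL28 gene (Zm00001d029256) did not pass (log2 fold change −0.05, edgeR adjusted p = 0.75). Of 4 genes described as SC35, 1 rose (Zm00001d031269, log2 fold change 0.49, edgeR adjusted p = 0.00757), none fell, and the others ran from −0.07 to 0.09.

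Of the 22 genes for hnRNP and other RNA-binding proteins, a group that includes opponents of SR proteins in site choice, 8 rose and 3 fell, with a median log2 fold change of 0.17. Without nacRNAi replicate 2, 5 rose and 2 fell. The exception with the smallest adjusted p was a gene described only as an RNA recognition motif protein (Zm00001d010213, chromosome 8, 104356766 to 104359468, plus strand). It had 27.0, 26.8 and 26.4 CPM in nacRNAi and 51.6, 52.6 and 48.7 CPM in wild type, a log2 fold change of −0.93 (SE 0.06, edgeR adjusted p = 2.45e-05). The most abundant by FPKM, the glycine-rich protein gene RZ1A (Zm00001d034768), had 153, 140 and 141 CPM in nacRNAi and 129, 128 and 139 CPM in wild type. Its libraries did not overlap, yet it did not pass (log2 fold change 0.13, edgeR adjusted p = 0.125). Of 3 genes for its relative RZ1C, 2 rose, by 0.53 and 0.19 on the log2 scale, and the second call (Zm00001d013543) was lost in 5 of the 6 fits that left out a library. Both genes for UBP1-associated protein 2A rose by 0.31 and 0.36.

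Of 8 tested genes outside these roles, 2 rose and 1 fell, and neither rise was called without nacRNAi replicate 2, nacRNAi replicate 3 or wild type replicate 1. The fall was in Zm00001d014894, which has no description, with 56.7, 59.0 and 60.3 CPM in nacRNAi and 85.7, 84.3 and 80.9 CPM in wild type (log2 fold change −0.51, edgeR adjusted p = 0.000274). Its model overlaps another gene model. The mediator subunit 37c gene Zm00001d042922 had 138, 209 and 220 CPM in nacRNAi and 90.6, 156 and 120 CPM in wild type. These libraries overlapped, and it did not pass (log2 fold change 0.63, edgeR adjusted p = 0.0975). It passed without nacRNAi replicate 1 (log2 fold change 0.81) or without wild type replicate 2 (0.84). The 7 heat shock genes that were left out of the set had 4 rises, no fall and a median log2 fold change of 0.50.

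**Figure D2:**
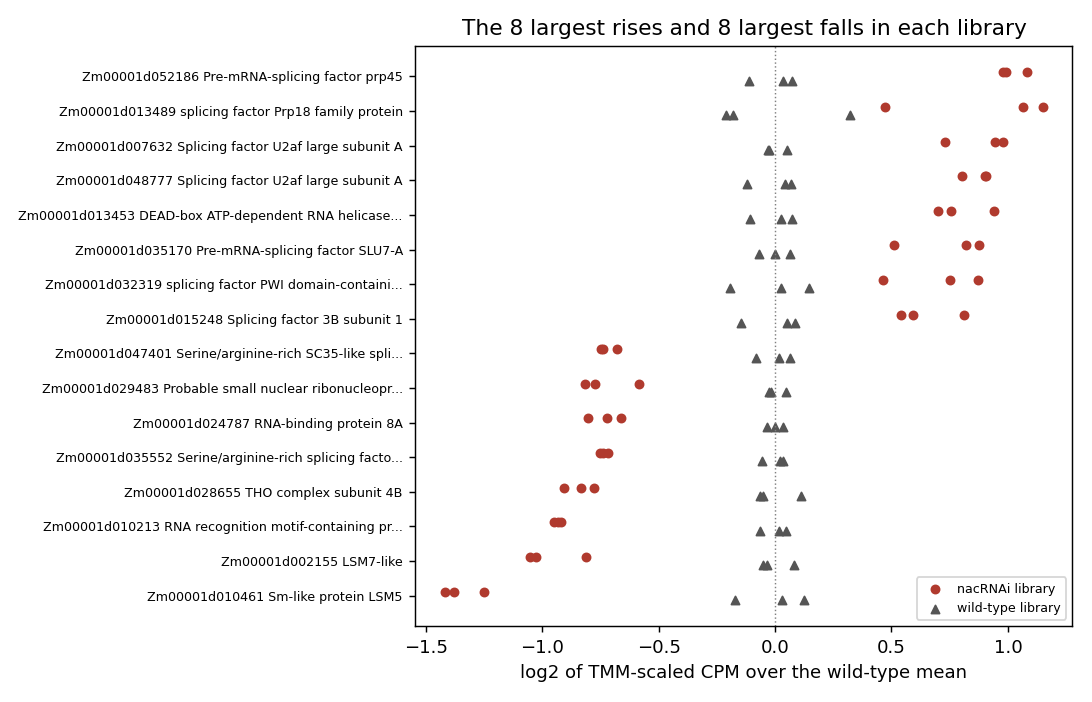
TMM-scaled CPM of the 16 genes with the largest rises and falls, on a log2 scale relative to each gene's wild-type mean (x axis), with 1 row per gene, red circles for the 3 nacRNAi libraries and grey triangles for the 3 wild-type libraries. In every row the libraries of the lines are apart, and they are closest for Prp18 (Zm00001d013489), with nacRNAi at 4.16 to 6.64 CPM and wild type at 2.59 to 3.75 CPM.

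Copies of the same factor did not always move together. Descriptions were shared by 91 of the tested genes, in 36 sets. In 12 sets the called genes were all higher, in 15 all lower, in 5 none was called, and in 4 sets genes were called in opposite directions. The ratio of a pair of genes within a library does not depend on how libraries are scaled. It can still carry the trend with gene length described below, where the copies differ in length. In the RS31A set, an SR family of plants, Zm00001d004477 had 23.6, 27.1 and 23.1 CPM in nacRNAi and 38.0, 37.0 and 37.4 CPM in wild type (log2 fold change −0.61, edgeR adjusted p = 0.000559). Zm00001d025063 also fell (log2 fold change −0.31, edgeR adjusted p = 0.00393). The third copy, Zm00001d048505, was the higher one in nacRNAi, with 50.9, 49.0 and 51.1 CPM there and 32.4, 44.2 and 27.2 CPM in wild type (log2 fold change 0.54, edgeR adjusted p = 0.0349). Its wild-type libraries were spread, and its call was lost in 4 of the 6 fits that left out a library, with log2 fold changes of 0.40 to 0.75. The log2 ratio of the first copy over the third was −1.04 ± 0.158 in nacRNAi and 0.14 ± 0.366 in wild type (SD, n = 3 each). Relative gene length, defined below, was 0.86 for the first copy and 1.42 for the third. With the length trend removed, the first and second copies stayed lower (log2 fold changes −0.53 and −0.31). The third no longer passed (log2 fold change 0.42, edgeR adjusted p = 0.0849). The sets were picked for their opposite calls, so the ratios of their genes are given as a description, with no test.

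PRP8A, a large protein that holds the catalytic centre, has a pair of genes in the set. Zm00001d036301 had 48.4, 57.6 and 63.2 CPM in nacRNAi and 75.6, 73.3 and 65.3 CPM in wild type (log2 fold change −0.34, edgeR adjusted p = 0.0303). Zm00001d045199 had 140, 138 and 155 CPM in nacRNAi and 128, 119 and 127 CPM in wild type (log2 fold change 0.21, edgeR adjusted p = 0.0358). Both calls were marginal, lost in 4 and 5 of the 6 fits that left out a library, with log2 fold changes of −0.43 to −0.24 and 0.16 to 0.24. The relative lengths of these copies were 0.85 and 1.43. With the length trend removed neither passed (log2 fold changes −0.26 and 0.09, edgeR adjusted p = 0.0831 and 0.308). The log2 ratio of the copies was −1.36 ± 0.150 in nacRNAi and −0.81 ± 0.138 in wild type (SD, n = 3 each). The PRP8A genes also had the widest gap between the deposited tables, since their log2 ratios of mean FPKM were −0.70 and −0.09 where the CPM on library totals gave 0.18 and 0.73. The handling of reads shared by the copies is not given in the sources used here. Outside the set, a gene of the same description (Zm00001d008845) averaged 9.64 CPM in nacRNAi and 3.76 CPM in wild type. It was called higher (log2 fold change 1.36, edgeR adjusted p = 0.00272).

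Of 3 genes described as U2AF small subunit A, which reads the AG at the end of the intron, a pair showed a small exchange with little spread. The most abundant of the 3, Zm00001d020954, averaged 86.6 CPM in nacRNAi and 92.0 CPM in wild type and did not pass. Zm00001d007784 had 62.8, 60.7 and 63.6 CPM in nacRNAi and 74.6, 73.7 and 74.4 CPM in wild type (log2 fold change −0.25, edgeR adjusted p = 0.00588). Zm00001d039014 had 72.8, 69.3 and 73.1 CPM in nacRNAi and 64.6, 64.3 and 64.1 CPM in wild type (log2 fold change 0.16, edgeR adjusted p = 0.0446, lost in all 6 fits that left out a library, with values of 0.14 to 0.18). The log2 ratio of this pair was −0.20 ± 0.0105 in nacRNAi and 0.21 ± 0.00909 in wild type (SD, n = 3 each). Which of the pair was the more abundant in counts therefore differed between the lines in all libraries. With the length trend removed both passed (log2 fold changes −0.20 and 0.24, edgeR adjusted p = 0.0206 and 0.0108). On library totals, where the typical gene moved by 0.52, Zm00001d025063, Zm00001d036301 and Zm00001d007784 had log2 fold changes of 0.21, 0.18 and 0.26. The fourth such set, genes described as RRM/RBD/RNP motif proteins, is a broad family in which 1 of 9 rose (Zm00001d032807, log2 fold change 0.33, edgeR adjusted p = 0.0221, lost in 3 of the 6 fits that left out a library) and 1 fell (Zm00001d010901, −0.22, edgeR adjusted p = 0.0118). For the U2AF large subunit, the gene called higher was compared with Zm00001d048655, described as mRNA splicing factor1 and annotated with the same U2AF and polypyrimidine terms, a pair chosen after its values were seen. Zm00001d048655 had 69.1, 68.8 and 70.4 CPM in nacRNAi and 66.9, 63.1 and 69.7 CPM in wild type and did not pass. The log2 ratio of Zm00001d048777 to it was 1.12 ± 0.0490 in nacRNAi and 0.31 ± 0.0419 in wild type (SD, n = 3 each).

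**Figure D3:**
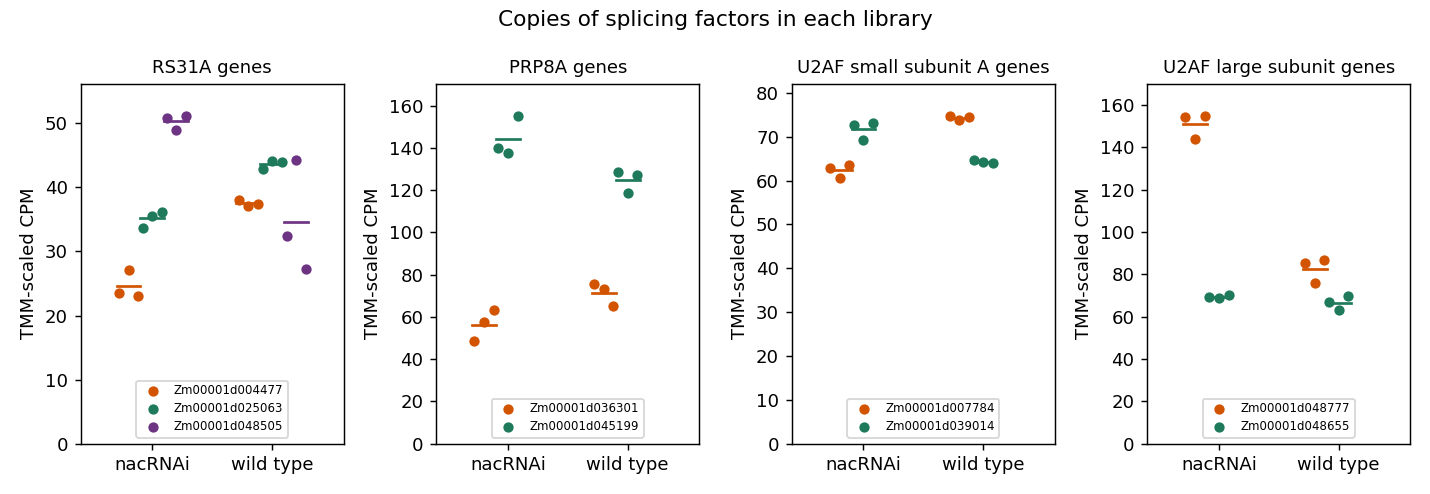
TMM-scaled CPM in each library (y axis, from 0) for 4 sets of splicing factor copies, nacRNAi on the left of each panel and wild type on the right, with 1 point per library and a bar at the mean. The drawn pair of U2AF small subunit genes exchanges places, Zm00001d039014 lying above Zm00001d007784 in nacRNAi and below it in wild type. The more abundant Zm00001d020954 of the same description is not drawn. Zm00001d048777 stands near 151 CPM in nacRNAi and near 82.5 CPM in wild type beside an almost level Zm00001d048655.

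The direction of change went with gene length. The ratio of a gene's CPM on library totals to its FPKM, taken as the median over the 6 libraries and set to 1 for the median tested gene, served as a relative length. It comes from the same counts as the fold changes. Spearman's rho between log2 fold change and relative length was 0.55 across the 155 spliceosome genes and 0.24 across 22162 tested genes with a length, given as a description since genes are not independent. With the span of the gene model, introns included, which uses no counts, rho was 0.20 for spliceosome genes and 0.14 for 22259 tested genes. All tested genes were divided into 4 equal groups by relative length. Of the 24 spliceosome genes in the shortest group, 2 were higher (8.33%, beside 13.9% of all genes of that group) and 13 lower (54.2%, beside 33.7%), with a median log2 fold change of −0.27 beside −0.33 for all genes of that group. Of the 40 in the longest group, 22 were higher (55%, beside 36.7%) and 1 lower (2.5%, beside 11.3%), with a median of 0.27 beside 0.23. The median relative length was 0.49 for Sm and LSm genes, 0.86 for SR genes, 1.02 for Prp19 genes, 1.03 for hnRNP and other RNA-binding genes and 1.06 for genes outside the roles. It was 1.28 for tri-snRNP genes, 1.31 for exon junction, export and cap-binding genes, 1.54 for U2 and branch-site genes, 1.64 for helicases and 3.12 for U1 partners. The exon junction class stood apart from this order, with a median relative length of 1.31 and a median log2 fold change of −0.22. With the length trend removed, as described below, the median of this class was −0.27. The relative lengths of its 8 falls were 0.50, 0.53, 0.57, 0.64, 0.71, 0.76, 1.24 and 2.12. Those of its 2 rises were 1.40 and 2.23.

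**Figure D4:**
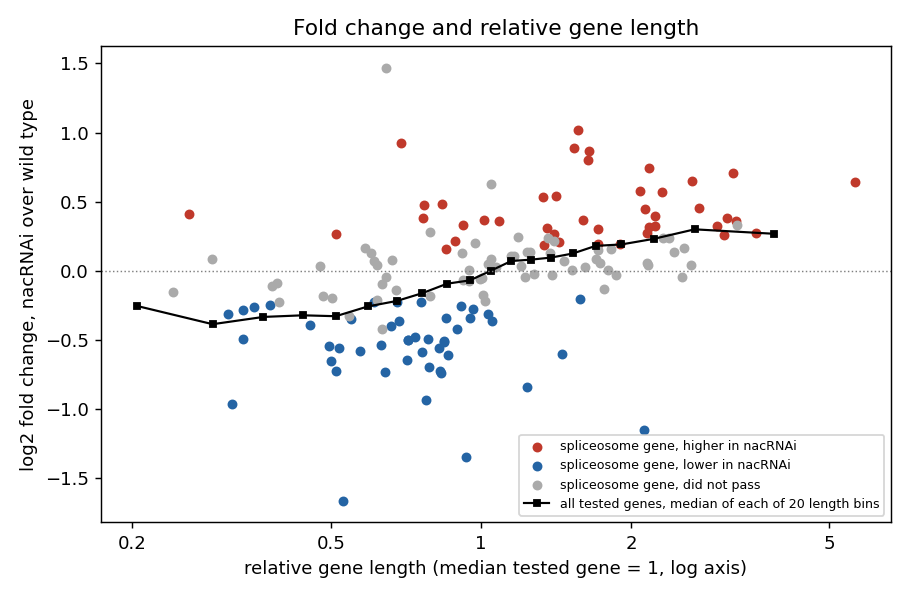
Log2 fold change, nacRNAi over wild type (y axis), against relative gene length (log x axis, median tested gene = 1); points are the tested spliceosome genes, coloured red where called higher, blue where called lower and grey otherwise, and the black line joins the medians of all tested genes in 20 length bins. Spliceosome genes and the line climb together from the short genes, with a spliceosome median of −0.27 in the shortest of 4 equal length groups, to the long ones, with 0.27 in the longest.

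A smooth trend on relative length was then removed from each library. Over the set, 27 genes were higher (17.4%, beside 20.5% of all tested genes) and 38 lower (24.5%, beside 23.4%). Of the 42 rises 22 were kept, and of the 47 falls 35. Of the 13 SR genes that fell, 11 were kept, of the 2 that rose 1 was kept and 1 other was newly called, and the class median was −0.24. Of the 8 falls among exon junction, export and cap-binding genes, 7 were kept and 2 genes were newly called lower, BAT1 (Zm00001d009761) and a SAP domain gene (Zm00001d029352), with log2 fold changes of −0.23 and −0.31. Neither rise of that class was kept, and its median was −0.27. Of the 12 falls among Sm and LSm genes, 7 were kept, 2 genes were newly called higher, and the median was −0.05, close to the −0.02 of all tested genes. Helicases kept 6 of 10 rises and their 1 fall, with a median of 0.16, hnRNP and other RNA-binding genes kept 6 of 8 rises and all 3 falls, and U1 partners kept 1 of 3 rises, with a median of 0.02. LSM5, LSM7-like, RS2Z32, THO4B, Y14 and mago nashi remained lower, with log2 fold changes of −1.30, −0.68, −0.65, −0.90, −0.55 and −0.37, and prp45, both U2AF large subunit genes, SLU7 and SF3B1 remained higher, with 0.87, 0.71, 0.75, 0.51 and 0.37. All of these passed at an edgeR adjusted p under 0.05.

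**Figure D5:**
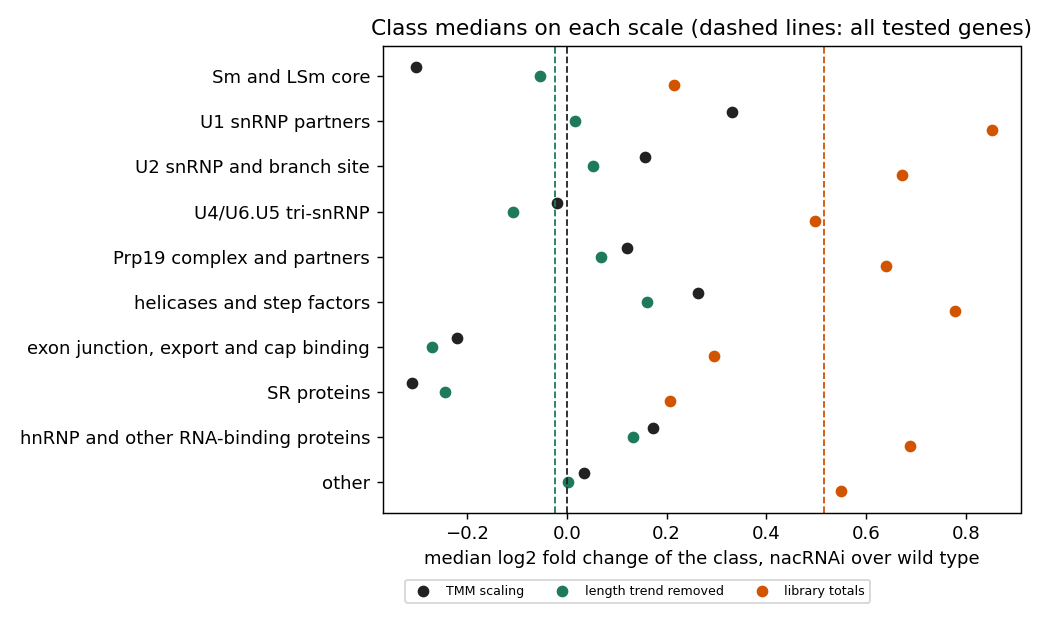
Median log2 fold change, nacRNAi over wild type (x axis), of each role class on 3 scales: TMM (black), TMM with the length trend removed (green) and library totals (orange), with dashed lines at the median of all tested genes on each scale. SR and exon junction and export genes lie left of the matching dashed line on all 3 scales, while the Sm and LSm median moves to −0.05, beside the line, once the length trend is removed.

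By deposited FPKM, which the authors corrected for gene length, 105 spliceosome genes averaged at least 10 and 14 at least 50 over the 6 libraries. The median was 15.3 FPKM and the highest 170. Tested with limma on log2(FPKM + 1), on which scale low genes show smaller changes, 116 of the 153 tested were higher (75.8%, beside 66.4% of all genes tested so) and 3 lower (1.96%, beside 7.52%), with a median log2 difference of 0.52, beside 0.51 for all tested genes. SR genes again stood lowest among the classes, with a median of 0.31, 10 higher and none lower, and exon junction, export and cap-binding genes had 0.36. The log2 ratios of mean FPKM and of mean CPM on library totals differed by over 0.5 for 9 spliceosome genes (5.81%, beside 13.8% of all tested genes).

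Related genes outside the set were counted as whole lists, without role classes. For comparison, 23.2% of all tested genes were higher and 24.0% lower. A description search for splicing factors, snRNP, Sm and LSm, SR and hnRNP names found 109 genes without the pathway mark, of which 73 were tested, 19 were higher and 18 lower, with a median log2 fold change of 0.08. Of those 109, 12 matched only by another sense of splicing. Among U11/U12 genes, which belong to the minor spliceosome that removes a rare kind of intron, 2 of 5 rose and 1 fell. Of 104 tested genes of the RNA transport pathway that are not in the set, 30 rose and 23 fell, and of 98 of the mRNA surveillance pathway 36 rose and 22 fell, with medians of 0.07 and 0.13.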

How the data were processed

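Endosperm RNA of 3 nacRNAi and 3 wild-type libraries was measured by RNA-seq (Truseq mRNA libraries, strand not stated, per the labels' protocols). The authors deposited raw read counts per gene, with no normalization, and FPKM values per gene, scaled by the authors for gene length and library size, per the file headers. No aligner, counter, genome build or annotation release is given in the sources used here. Positions are those of the files, their build unnamed. Gene names are the files' descriptions.

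Counts were filtered with filterByExpr, scaled by TMM and tested in edgeR 4.0.16 by quasi-likelihood F-test (R 4.3.3, robust, line as the only term, Benjamini-Hochberg over 22259 genes, threshold 0.05). No p is given for the summed level, since an exact test of 3 against 3 libraries cannot go below 0.1. An SE is the absolute log2 fold change over the square root of F. Alternatives used DESeq2 1.42.0, limma 3.58.1 on log2(FPKM + 1) and log2(FPKM + 0.1), other scalings and filters, a loess length trend (span 0.3), and each library left out. Python 3.11.15 drew the figures. Between libraries of a line, counts differed by more than sampling noise, so each counted as 1 sample. The tests were checked on simulated data with 200 changed genes and no built-in shift of library composition. That check does not bear on the choice of scale.

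Named genes are the 8 rises and 8 falls of largest size among called members without overlap and with at least 5 CPM in the higher line, the most abundant gene by FPKM and the smallest adjusted p of each class, and copies called in opposite directions. Members, lists and classes were chosen with earlier results of these data known.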

Additional observations from a re-analysis of the deposited data

How the results depend on the processing

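The counts of spliceosome genes called (89, of which 42 higher and 47 lower) moved by less than 1.5 times under DESeq2 size factors, TMM without zein genes, no filter, at least 1 CPM in 3 libraries and the DESeq2 Wald test. The same held, among alternatives added after the data were seen, without the mediator subunit 37c genes and without genes that overlap another model. Library totals gave 111 higher, 7 lower and a median of 0.56 (log2), and turned the difference of summed CPM from −291 to 2407. The sum of FPKM turned it to 1088. Limma on log2(FPKM + 1), on log2(FPKM + 0.1) and on log2(FPKM + 1) with no filter gave 116, 116 and 113 higher, 3 lower each time, and medians of 0.52, 0.60 and 0.51, and in the filtered fits 9 markers of other kernel parts changed, against 15. Removing the length trend left 27 higher and a median of −0.012. An adjusted p under 0.01 left 55 spliceosome genes (20 higher), 21 splicing-related genes outside the set and 6992 of all genes. A minimum of 1.5-fold left 24 (9 higher, 15 lower), 12 and 6849. Leaving out 1 library gave 66 to 78 spliceosome genes (26 to 35 higher, 40 to 44 lower), 8525 to 9714 of all genes, 26 to 34 splicing-related genes, 11 to 15 kernel markers, medians of 0.015 to 0.045 and differences of summed CPM of −338 to −173. Replicate numbers did not pair the samples, since same-numbered libraries had correlations of −0.039, −0.039 and −0.104, and the fit with a replicate block called 35 higher and 41 lower.

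Of the 89 spliceosome genes called, 26 changed sign on library totals, all of them from lower to above 0, and 5 with the length trend removed, while 35 of 88 did with limma on log2(FPKM + 1), 34 of them from lower to above 0. Among these, PHF5A (Zm00001d001951) had 0.023 on library totals and 0.36 on the FPKM scale, SR34 (Zm00001d047498) 0.10 and the LSM5 copy Zm00001d038088 0.19 on the FPKM scale, and the RSZ22 genes 0.15 to 0.29 and 0.16 to 0.52. The genes chosen by the naming rule changed sign as follows. With the length trend removed, Zm00001d020954, Zm00001d044510 and Zm00001d049557 had log2 fold changes of 0.19, −0.011 and 0.025. On library totals, Zm00001d007784 had 0.26, Zm00001d010901 0.29, Zm00001d014894 0.0064, Zm00001d020954 0.43, Zm00001d025063 0.21, Zm00001d036301 0.18 and Zm00001d049557 0.26. With limma on log2(FPKM + 1), with or without the filter, and on log2(FPKM + 0.1), the values were 0.042 and 0.043 for Zm00001d002155, 0.51 and 0.52 for Zm00001d007784, 0.36 and 0.37 for Zm00001d010901, 0.26 and 0.27 for Zm00001d014894, and 0.59 and 0.60 for Zm00001d020954. They were 0.036 and 0.037 for Zm00001d024787, 0.37 and 0.39 for Zm00001d025063, 0.0044 and 0.0045 for Zm00001d029483, and 0.11 with either for Zm00001d032313. They were −0.090 and −0.092 for Zm00001d045199, 0.22 with either for Zm00001d047958, 0.43 with either for Zm00001d049557, and 0.16 and 0.17 for Zm00001d049723. Signs here are read against 0, while the median of all tested genes was 0.52 on library totals and 0.51 with limma on log2(FPKM + 1). A value between 0 and that median still lies below the typical gene. With the length trend removed that median was −0.02. Any further cause of these changes was not tested. With 3 libraries per line, changes of the size typical here, 0.27 on the log2 scale, lie near the limit of the test, and a gene that did not pass is not shown to be level.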
